A study of Homo sapiens with 12 samples.

Results

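Knockdown of OGA was set directly against EP300 siRNA given together with OGA, gene by gene, in naive human embryonic stem cells. The genes described are the 13074 of 62753 listed genes whose mean reached 1 FPKM over the 6 libraries compared. FPKM is fragments per kilobase of the listed gene length, scaled to the size of the library. The members just inside and just outside that minimum were ST3GAL1, at a mean of 1.00084 FPKM, and a gene at 0.999639 FPKM. Of the genes tested, 10844 were protein-coding, 702 averaged below 1 FPKM in siOGA and 712 averaged below it in siP300+OGA. The 6 libraries belong to a series of 12, in 4 groups of 3. All come from H9, an established line of human embryonic stem cells, which the labels place in PXGL on a layer of mouse feeder fibroblasts. PXGL is a medium with the MEK inhibitor PD0325901, the tankyrase inhibitor XAV939, the protein kinase C inhibitor Gö6983 and human LIF. The siOGA group has the genotype OGA knockdown. The siP300+OGA group is named for an siRNA against EP300, while its genotype field gives only OGA overexpression, and its titles, unlike those of the other groups, do not name PXGL. The other 2 groups are siP300, labelled EP300 knockdown, and siNC, labelled WT. The siRNA sequences, the OGA construct and the time of harvest were not given in the sources used here. The 2 groups compared differ in both manipulations, so a difference between them cannot be told apart as one of OGA or one of EP300.

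OGA is the enzyme that takes the sugar O-GlcNAc off serines and threonines of nuclear and cytoplasmic proteins, and OGT is the enzyme that puts it on. The sugar donor comes from the hexosamine pathway, whose first step is run by GFPT1 and GFPT2. EP300 and its relative CREBBP are lysine acetyltransferases that act on histones and transcription factors at enhancers and promoters. Naive embryonic stem cells resemble the epiblast before implantation and carry markers such as KLF17, DPPA3 and DPPA5, while primed cells resemble a later epiblast and carry markers such as ZIC2 and SFRP2.

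The groups differed in most of the genes tested, and nearly as many genes were higher in one group as in the other. At an adjusted p under 0.05 by limma on log2(FPKM + 1), 5088 genes (38.9%) were higher and 4616 (35.3%) lower in siOGA than in siP300+OGA, together 74.2% of those tested. Each count of called list members given later stands against these 38.9% and 35.3%. Most of these differences were small: 4791 of the genes called differed by less than 0.5 on the log2 scale, and the median size over all genes tested was 0.39. A difference of at least 1 was reached by 787 genes (6.02%) that were higher and 752 (5.75%) that were lower, and of at least 2 by 72 and 70. The libraries of the groups did not overlap for 75.6% of the genes tested. Between libraries of a group, the SD of a gene had a median of 0.080 on this scale, so differences well under 0.5 could pass. The median difference of all genes was 0.036, and every difference given here is siOGA minus siP300+OGA. The labels do not say that the 3 libraries of a group came from separate cultures, so the p-values measure only the spread between these samples, which may be technical.

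The libraries held 16238225 to 18714572 reads in genes, and 1 read per kilobase was worth 0.0518 to 0.0647 FPKM. The difference between the groups moved with the base composition of the transcripts. The median log2 difference was 0.23 in the GC decile with the lowest content (median 36.7%), where 52.6% of the genes were called higher. In the decile with the highest content (median 64.2%) it was -0.25, and 21.6% were called higher. Library replicate 3 of siOGA had the steepest slope of the 12, at 0.18 and -0.27 in those 2 deciles relative to siNC. With the GC medians removed in each library, 4910 genes were higher and 4886 lower in siOGA.

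**Figure D1:**
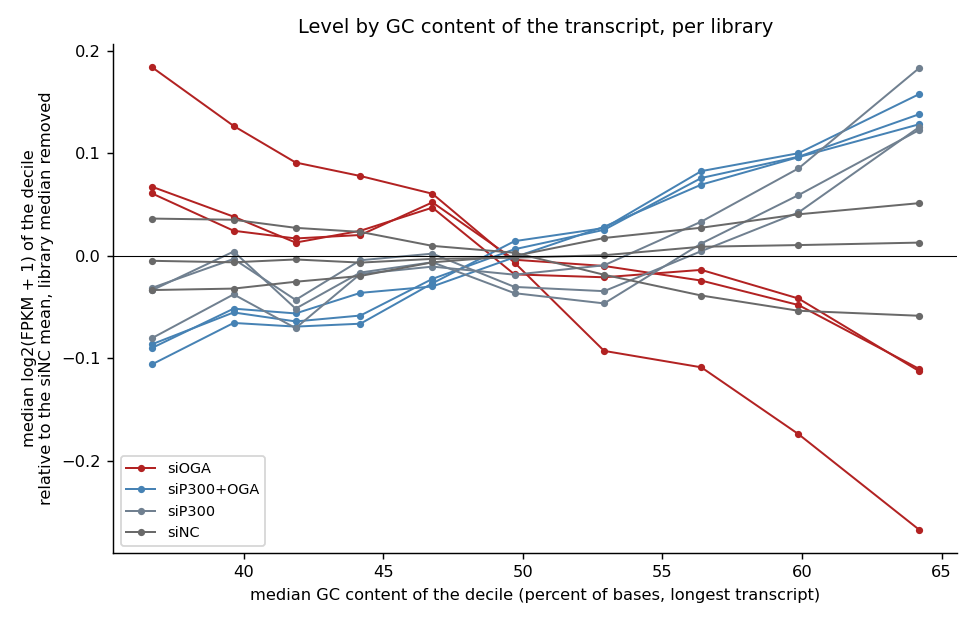
Median level of the genes of each GC decile in every library, as log2(FPKM + 1) relative to the siNC mean with the library's own median removed, against the median GC content of the longest transcript in percent. The siOGA lines fall from left to right, with replicate 3 reaching -0.27 in the highest decile, and the siP300+OGA lines rise to between 0.13 and 0.16.

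The manipulated genes were read first. OGA (chr10:101784443-101818465, minus strand in GRCh38) had 7.38, 8.01 and 8.92 FPKM in siOGA, against 44.6, 43.6 and 43.1 FPKM in siP300+OGA (log2 difference -2.30, SE 0.055, adjusted p = 7.56e-11). The groups did not overlap, and siP300+OGA had 5.4 times the mean of siOGA. The OGA transcript in the libraries labelled as overexpressing it stood close to the other groups, which averaged 39.8 FPKM in siP300 and 40.5 FPKM in siNC. EP300 (chr22:41092592-41180077, plus strand) had 23, 23.4 and 24 FPKM in siOGA, against 15.4, 15.1 and 15.8 FPKM in siP300+OGA (log2 difference 0.58, SE 0.029, adjusted p = 1.41e-08). The siOGA libraries were at the siNC level of 23.2 ± 0.355 FPKM and siP300 averaged 13.3 ± 0.108 FPKM (SD, n = 3 libraries here and below). Its relative CREBBP went the other way, with 9.6, 9.55 and 9.43 FPKM in siOGA, against 16.4, 17.1 and 17.1 FPKM in siP300+OGA (log2 difference -0.76, SE 0.032, adjusted p = 4.39e-09).

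Among the 13 genes of O-GlcNAc cycling and the hexosamine pathway, all tested, 7 were higher and 3 lower in siOGA, with a median of 0.21, beside 38.9% and 35.3% of all genes. That median was 0.12 with regional medians removed (7 higher and 5 lower) and turned to -0.011 with the GC medians removed (6 higher and 4 lower). GFPT1, the enzyme of the first step, had 122, 118 and 135 FPKM in siOGA, against 36.4, 36.6 and 36.3 FPKM in siP300+OGA (log2 difference 1.75, SE 0.047, adjusted p = 2.03e-10). The siOGA libraries were all above the siP300+OGA libraries and near the siNC mean of 117 ± 4.96 FPKM, while siP300 averaged 42.9 ± 1.27 FPKM. Its isoenzyme GFPT2 was lower in siOGA, at 11.3 ± 0.426 FPKM in siOGA and 22.6 ± 0.613 FPKM in siP300+OGA (-0.94). The later enzymes PGM3 (0.72) and UAP1 (0.66), which move the phosphate and attach the nucleotide, were higher. OGT had 51.8, 51.4 and 55.8 FPKM in siOGA, against 45.6, 46.1 and 45.4 FPKM in siP300+OGA (log2 difference 0.21, SE 0.034, adjusted p = 0.000192). Once the median of its 20 Mb region was removed, the OGT difference was 0.077.

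**Figure D2:**
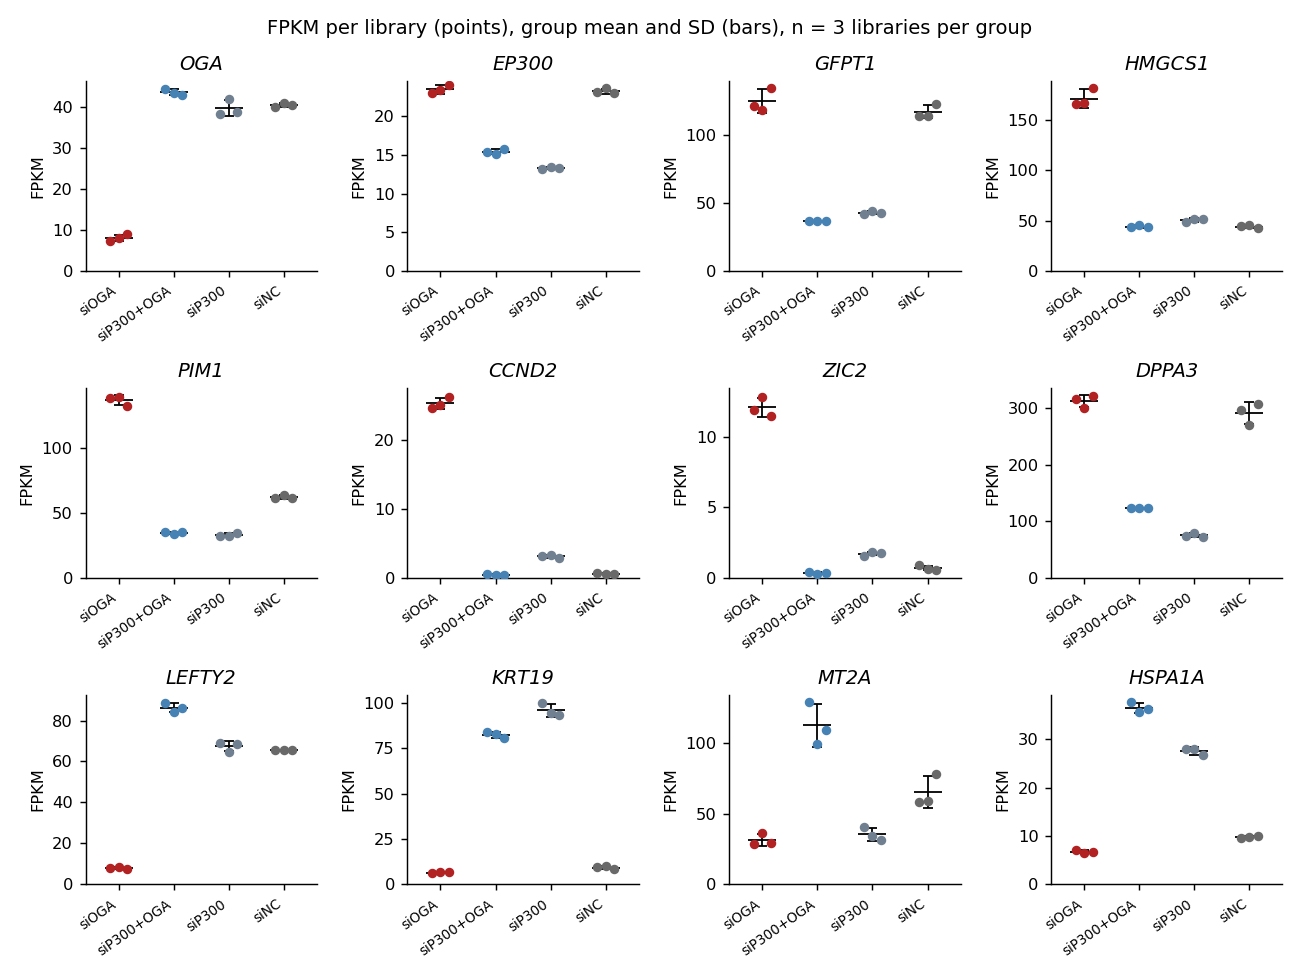
FPKM of 12 genes in every library, with points for libraries and bars for the group mean and SD (n = 3 libraries per group). Groups run from left to right as siOGA, siP300+OGA, siP300 and siNC, and in each panel the siOGA points lie apart from the siP300+OGA points.

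The largest rises and falls included genes near zero in one of the groups. CCND2, a D-type cyclin that drives entry into S phase, had 24.6, 25 and 26.3 FPKM in siOGA, against 0.559, 0.386 and 0.339 FPKM in siP300+OGA (log2 difference 4.21, SE 0.068, adjusted p = 9.42e-12). It was low in the other groups as well, with means of 3.08 FPKM in siP300 and 0.579 FPKM in siNC. ZIC2, a zinc-finger transcription factor of the primed state, had 11.9, 12.8 and 11.5 FPKM in siOGA, against 0.429, 0.27 and 0.292 FPKM in siP300+OGA (log2 difference 3.30, SE 0.081, adjusted p = 9.85e-11). Its siP300 and siNC means were 1.7 ± 0.125 and 0.68 ± 0.162 FPKM, so only the siOGA libraries exceeded 2 FPKM.

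Of the other large rises, ATP6V0D2, a subunit of the vacuolar proton pump, averaged 15.7 ± 1.01 FPKM in siOGA and 0.329 ± 0.0827 FPKM in siP300+OGA (3.65). GALNT17, of the mucin-type glycosyltransferase family, averaged 10.0 FPKM in siOGA and 0.632 FPKM in siP300+OGA (2.76), and EDIL3, an extracellular matrix protein, 16.2 FPKM in siOGA and 1.6 FPKM in siP300+OGA (2.72). ACSS2, which makes acetyl-CoA from acetate outside mitochondria, had 51.4, 52.6 and 52.3 FPKM in siOGA, against 7.84, 7.8 and 8.61 FPKM in siP300+OGA (log2 difference 2.55, SE 0.036, adjusted p = 3.17e-12). RASD1, a small GTPase induced by glucocorticoids, averaged 39.3 FPKM in siOGA and 5.72 FPKM in siP300+OGA (2.59). FXYD4, a regulator of the sodium pump, averaged 13.6 FPKM in siOGA and 1.31 FPKM in siP300+OGA (2.70), and its siNC mean was 16.6 ± 1.34 FPKM.

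The largest falls held a keratin and the inhibitors of NODAL signalling. KRT19, an intermediate filament protein of simple epithelia, had 6.07, 6.57 and 6.9 FPKM in siOGA, against 84.1, 83 and 80.7 FPKM in siP300+OGA (log2 difference -3.48, SE 0.061, adjusted p = 1.17e-11). The siP300 libraries averaged 96 ± 3.56 FPKM and the siNC libraries 9.29 ± 0.88 FPKM, so both groups given EP300 siRNA were high and the others low. PCAT14, a long noncoding RNA, had 1.79, 1.63 and 2.13 FPKM in siOGA, against 54.2, 52.5 and 54.2 FPKM in siP300+OGA (log2 difference -4.26, SE 0.061, adjusted p = 3.17e-12), and siP300+OGA was above 17.8 FPKM in siP300 and 21.9 FPKM in siNC as well. TIMP4, an inhibitor of matrix metalloproteinases, averaged 2.39 ± 0.405 FPKM in siOGA and 32.4 ± 0.868 FPKM in siP300+OGA (-3.31), with 6.04 FPKM in siP300 and 2.17 FPKM in siNC. SOX18, a transcription factor of the endothelium, averaged 0.719 FPKM in siOGA and 13.4 FPKM in siP300+OGA (-3.07). FAM83H averaged 1.24 FPKM in siOGA and 16.3 FPKM in siP300+OGA (-2.95), NYNRIN 0.335 FPKM in siOGA and 7.6 FPKM in siP300+OGA (-2.69) and NCOA5, a nuclear receptor coregulator, 2.37 FPKM in siOGA and 20.5 FPKM in siP300+OGA (-2.67).

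The same rule named 5 very short genes, of 71 to 99 bases, whose values rest on few reads. MIR573 had 45, 15 and 46 reads in siOGA and 1, 5 and 3 in siP300+OGA. MIR548L had 19, 10 and 12 reads in siOGA and 1, 0 and 2 in siP300+OGA, and SNORD117 had 23, 35 and 27 against 3, 4 and 4. MIR656 had 4, 7 and 0 reads in siOGA and 96, 96 and 100 in siP300+OGA, and MIR4664 had 7, 6 and 9 against 68, 70 and 77. These libraries were made from fragmented poly(A) RNA, so such reads do not measure the mature small RNA, and which transcript they come from was not tested.

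Naive markers were split. Of 32 listed, 27 were tested, and 15 were higher and 8 lower in siOGA, with a median of 0.39, against 38.9% and 35.3% of all genes. Below the minimum, MAEL averaged 0.47 FPKM in siOGA and 0.761 FPKM in siP300+OGA, against 5.41 FPKM in siNC. ARGFX (0.292 FPKM in siOGA and 0.597 FPKM in siP300+OGA), TBX3 (0.218 and 0.457 FPKM) and ESRRB (0.0348 and 0.0452 FPKM) also had lower means in siOGA. DPPA3, a maternal factor of naive cells and the germline, had 316, 301 and 321 FPKM in siOGA, against 123, 123 and 123 FPKM in siP300+OGA (log2 difference 1.34, SE 0.048, adjusted p = 1.11e-09). NANOG, a homeobox factor of pluripotency, had 33.4, 33.3 and 36.2 FPKM in siOGA, against 19.1, 19.2 and 17.1 FPKM in siP300+OGA (log2 difference 0.86, SE 0.069, adjusted p = 5.87e-07). Both lie on the short arm of chromosome 12, where most genes were higher in siOGA, and with the regional median removed the differences were 0.79 for DPPA3 and 0.31 for NANOG.

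KLF17, a factor found in naive but not in primed human cells, went the opposite way, with 3.17, 2.56 and 3.11 FPKM in siOGA, against 9.69, 10.2 and 9.53 FPKM in siP300+OGA (log2 difference -1.46, SE 0.058, adjusted p = 2.81e-09). Both groups were below the siNC mean of 19 ± 0.345 FPKM, and siP300 averaged 6.13 ± 0.239 FPKM. The surface enzyme ALPG had 223, 219 and 185 FPKM in siOGA, against 41.1, 41.5 and 41.5 FPKM in siP300+OGA (log2 difference 2.31, SE 0.057, adjusted p = 9.71e-11), and siP300+OGA was the lowest of the 4 groups, since siP300 and siNC averaged 120.4 ± 1.46 and 211 ± 4.93 FPKM. OLAH, a thioesterase of fatty acid synthesis, was also lowest in siP300+OGA, with 7.26 ± 0.37 FPKM in siOGA and 0.777 ± 0.232 FPKM in siP300+OGA (2.22) and 7.41 FPKM in siP300 and 10.5 FPKM in siNC.

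Other naive markers that were higher in siOGA were CPT1A (1.42), which carries fatty acids into mitochondria, the surface marker SUSD2 (1.26), and the transcription factors TFCP2L1 (0.99), KLF5 (0.78), TFAP2C (0.67) and KLF4 (0.60). Those that were lower included UTF1 (-1.04), a chromatin-bound factor of pluripotent cells, and KHDC3L (-0.87), an oocyte factor. DPPA5 had 353, 360.4 and 293 FPKM in siOGA, against 395, 369.8 and 381 FPKM in siP300+OGA (log2 difference -0.19, SE 0.069, adjusted p = 0.0265). DPPA5 was no longer past the threshold without siOGA replicate 3 (-0.097, adjusted p = 0.066), siP300+OGA replicate 1 (-0.17, adjusted p = 0.0833) or siP300+OGA replicate 3 (-0.19, adjusted p = 0.0558). DNMT3L, the cofactor of the de novo DNA methyltransferases, averaged 98.1 ± 2.51 FPKM in siOGA and 109.9 ± 2.89 FPKM in siP300+OGA (-0.16). With the regional median removed the DNMT3L difference was 0.36, and with the GC medians removed 0.021, so its direction turned.

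Of the 13 core pluripotency genes, 5 were higher and 5 lower in siOGA. POU5F1 averaged 534 ± 60.2 FPKM in siOGA and 427 ± 6.13 FPKM in siP300+OGA (0.32, adjusted p = 0.00169) and SOX2 108 ± 7.41 FPKM in siOGA and 85.7 ± 1.86 FPKM in siP300+OGA (0.33). The POU5F1 difference was 0.037 after quantile normalization (adjusted p = 0.632), and this gene has near-identical pseudogenes that the authors' counting could have split. TDGF1, the NODAL coreceptor, averaged 309 FPKM in siOGA and 203 FPKM in siP300+OGA (0.60). On the lower side stood the RNA-binding proteins L1TD1 (-1.41) and LIN28A (-0.60): L1TD1 had 55.8, 52.4 and 58.4 FPKM in siOGA, against 151, 149 and 148 FPKM in siP300+OGA, and siP300+OGA was the highest of the 4 groups.

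Primed markers also fell on both sides. Of 26 listed, 23 were tested, and 9 were higher and 10 lower, with a median of -0.029, beside 38.9% and 35.3% of all genes. Below the minimum, ZIC5 averaged 1.845 FPKM in siOGA and 0.108 FPKM in siP300+OGA. CYTL1 had 0.17 FPKM in siOGA and 0.116 FPKM in siP300+OGA, and DUSP6 0.106 and 0.231 FPKM. The median of the primed markers was -0.12 with regional medians removed (9 higher and 12 lower) and turned to 0.12 with the GC medians removed (10 and 10). Beside ZIC2, the higher ones included the intermediate filament vimentin (VIM), with 7.5, 7.38 and 7.94 FPKM in siOGA, against 1.03, 0.951 and 0.851 FPKM in siP300+OGA (log2 difference 2.15, SE 0.07, adjusted p = 6.57e-10), and N-cadherin (CDH2), with 3.88 ± 0.125 FPKM in siOGA and 0.262 ± 0.035 FPKM in siP300+OGA (1.95). The order of groups for these 2 was not that of ZIC2: siP300 averaged 15 ± 0.801 FPKM of VIM and 3.57 ± 0.0562 FPKM of CDH2. The transcription factors SALL1 (1.68) and ETV5 (1.15) were higher too. The lower ones included the Notch target HES1 (-1.34), the homeobox factor OTX2 (-0.84) and the DNA methyltransferase DNMT3B (-0.78). SFRP2, a secreted WNT antagonist, had 25.4, 22.1 and 23.7 FPKM in siOGA, against 20.3, 20.9 and 21.5 FPKM in siP300+OGA and did not pass the test (log2 difference 0.17, SE 0.096, adjusted p = 0.127). Both groups were above the siNC mean of 0.812 ± 0.274 FPKM. SFRP2 passed in a fit of the 6 libraries alone (0.17, adjusted p = 0.028), with a pseudocount of 5 FPKM (0.15, adjusted p = 0.0175), with voom on the recovered reads (0.18, adjusted p = 0.0242) and without siNC replicate 3 (0.17, adjusted p = 0.0142).

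Most markers of other embryonic and extraembryonic types were below the minimum. Of the 21 listed for trophectoderm and placenta, 7 were tested, with 4 higher and 3 lower, and with regional medians removed 2 and 4, the median moving from 0.21 to -0.26. The lower ones were the keratins KRT19, KRT8 and KRT18, and the 4 higher ones differed by at most 0.50. The defining factors GATA3, with 0.135 FPKM in siOGA and 0.182 FPKM in siP300+OGA, and CDX2, with 0.0704 FPKM in siOGA and 0.0385 FPKM in siP300+OGA, were near zero. Others below the minimum fell on both sides. CGA averaged 1.3 FPKM in siOGA and 0.0588 FPKM in siP300+OGA, and PGF 0.151 FPKM in siOGA and 0.397 FPKM in siP300+OGA. Of 15 hypoblast and endoderm genes 7 were tested, with 5 higher, led by APOA1 (1.45) and CER1 (0.71), and OTX2 lower. SOX17 (0.24 FPKM in siOGA and 0.0421 FPKM in siP300+OGA) and GATA4 (0.13 FPKM in siOGA and 0.544 FPKM in siP300+OGA) were below the minimum. Of 13 mesoderm and primitive streak genes 3 were tested: MIXL1, with 0.509, 0.571 and 0.674 FPKM in siOGA, against 4.59, 6.24 and 5.3 FPKM in siP300+OGA (log2 difference -2.0, SE 0.087, adjusted p = 5.31e-09), was lower in siOGA, and SNAI1 (1.31) and TBX6 (0.66) were higher, while TBXT averaged 0.0385 FPKM in siOGA and 0.246 FPKM in siP300+OGA. Of 12 neuroectoderm genes 3 were tested, and NES (-1.64) and DLK1 (-0.61) were lower. NES had 19.3, 19.7 and 17.1 FPKM in siOGA, against 61.9, 59.3 and 59.1 FPKM in siP300+OGA, PAX6 averaged 0.066 FPKM in siOGA and 0.0123 FPKM in siP300+OGA, and the DLK1 difference was -0.063 with regional medians removed. Of 17 genes of the 8-cell-like state only CCNA1 was tested, and it did not pass, with CCNA1 (-0.07, adjusted p = 0.616), unless siP300+OGA replicate 1 was left out (-0.23, adjusted p = 0.0297). Of 10 amnion genes 2 were tested, and BAMBI was lower (-0.25), but not without siP300+OGA replicate 3 (-0.20, adjusted p = 0.0544). Fewer cells of a type and less RNA per cell cannot be told apart in such bulk samples.

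Feeder fibroblasts could also lend RNA, and of 15 fibroblast markers 7 were tested, with 4 higher and 2 lower. Their summed level was 215 to 224 FPKM over the siOGA libraries and 155 to 156 FPKM over the siP300+OGA libraries. The largest part of the sum was SPARC, a secreted matrix-binding protein, with 115 ± 1.91 FPKM in siOGA and 114 ± 0.355 FPKM in siP300+OGA. SPARC did not pass (0.016), but was lower in siOGA (-0.13, adjusted p = 0.000626) with regional medians removed, as in 2 other alternatives. Fibronectin (FN1) had 45.9, 43.6 and 47.1 FPKM in siOGA, against 13.1, 13.8 and 13.1 FPKM in siP300+OGA (log2 difference 1.70, SE 0.044, adjusted p = 1.49e-10). CCN2, a matricellular protein that YAP and TEAD induce, had 41.9, 40.1 and 43.1 FPKM in siOGA, against 11.1, 11.4 and 10.9 FPKM in siP300+OGA (log2 difference 1.82, SE 0.044, adjusted p = 9.16e-11). The collagen genes COL1A2 (0.39) and COL5A1 (0.45) were higher in siOGA, and COL1A1 (-0.39) and the surface marker THY1 (-0.38) lower. COL1A1 averaged 3.27 FPKM in siOGA and 4.61 FPKM in siP300+OGA, COL1A2 7.21 FPKM in siOGA and 5.28 FPKM in siP300+OGA and COL5A1 1.34 FPKM in siOGA and 0.709 FPKM in siP300+OGA. The other 8 markers averaged below 1 FPKM in both groups. Of these, DCN was 0 in both groups and the means of the other 7 were higher in siOGA, among them FBN1 with 0.615 FPKM in siOGA and 0.309 FPKM in siP300+OGA, PDGFRB with 0.343 FPKM in siOGA and 0.0269 FPKM in siP300+OGA and COL3A1 with 0.207 FPKM in siOGA and 0.0522 FPKM in siP300+OGA. The part of feeder RNA in the results was not tested.

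NODAL signalling, which holds the primed state and patterns the epiblast through SMAD2 and SMAD3, had the largest falls of the signalling lists. NODAL itself, the ligand, had 6.64, 8.8 and 6.55 FPKM in siOGA, against 31.4, 36.3 and 34.7 FPKM in siP300+OGA (log2 difference -2.09, SE 0.11, adjusted p = 1.62e-08). LEFTY1 and LEFTY2 are secreted inhibitors that NODAL induces. LEFTY2 had 8.1, 8.38 and 7.37 FPKM in siOGA, against 88.6, 84.2 and 86 FPKM in siP300+OGA (log2 difference -3.29, SE 0.042, adjusted p = 2.58e-12), and LEFTY1 had 1.4, 1.42 and 1.78 FPKM in siOGA, against 20.9, 19.4 and 20.7 FPKM in siP300+OGA (-3.08). All 3 siOGA libraries were below every siP300+OGA library in each. The siNC libraries averaged 27.2 ± 3.23 FPKM of NODAL and 65.6 ± 0.138 FPKM of LEFTY2, so siOGA was below siNC too in NODAL and LEFTY2. The siP300 levels were not compared here. The LEFTY genes are near-identical neighbours, so reads could have been split between them. The receptor ACVR1B (0.98) and the ligand GDF3 (0.71) were higher, and GDF3 lies on the short arm of chromosome 12 with a difference of 0.16 once the regional median was removed. Of 13 tested genes of this list, 5 were higher and 6 lower.

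BMP signalling runs through SMAD1 and SMAD5 and induces the ID genes. ID1 had 46.1, 41.2 and 41.4 FPKM in siOGA, against 92.1, 92 and 92.8 FPKM in siP300+OGA (log2 difference -1.09, SE 0.041, adjusted p = 1.55e-09), and ID3 averaged 4.16 ± 0.455 FPKM in siOGA and 8.64 ± 0.61 FPKM in siP300+OGA (-0.91). The ligand BMP4 (-1.09), the inhibitory SMAD SMAD7 (-1.15) and ID4 (-0.69) were lower too. Of 11 tested, 5 were higher and 6 lower, and 3 and 6 with regional medians removed. The siP300 libraries had more ID1 and ID3 than either group, at 124 ± 2.59 and 25.7 ± 0.94 FPKM, against 42.2 ± 1 and 0.453 ± 0.112 FPKM in siNC.

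In the FGF and ERK pathway the groups differed in both directions. Among 11 ligands and receptors, 6 were higher and 4 lower (4 and 4 with regional medians removed): the decoy receptor FGFRL1 (-1.77), the ligand FGF8 (-1.53) and the receptor FGFR3 (-1.29) were lower, and FGFBP3 (1.30), an FGF-binding protein, was higher. Of 13 tested genes of ERK feedback and response, 3 were higher and 6 lower, and 1 and 8 with regional medians removed. SPRY4, a feedback inhibitor of the pathway, averaged 2.63 ± 0.0983 FPKM in siOGA and 5.61 ± 0.735 FPKM in siP300+OGA (-0.86), and siNC averaged 0.0797 ± 0.0249 FPKM. CCND1, the D-type cyclin that ERK induces, had 29.4, 28.8 and 27.8 FPKM in siOGA, against 64.5, 64 and 63.1 FPKM in siP300+OGA (log2 difference -1.13, SE 0.029, adjusted p = 1.43e-10), opposite in direction to CCND2. The immediate early gene FOS (-1.08) was also lower.

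Of 20 tested WNT pathway genes, 5 were higher and 10 lower, against 38.9% and 35.3% of all genes. The ligand WNT8A had 0.357, 0.338 and 0.115 FPKM in siOGA, against 5.81, 4.17 and 4.82 FPKM in siP300+OGA (log2 difference -2.22, SE 0.11, adjusted p = 1.28e-08). The ligand WNT3 (-1.69), the receptor FZD2 (-1.27), the transcription factor TCF7 (-1.13) and the target genes SP5 (-1.01) and AXIN2 (-0.53) were lower as well. The genes that were higher differed by at most 0.39.

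LIF acts through its receptor and IL6ST to activate JAK1 and STAT3. Of the 11 tested genes of this pathway 9 were higher in siOGA and 0 lower, with a median of 0.49, against 38.9% and 35.3% of all genes. PIM1, a kinase gene that STAT3 induces, had 139, 140.2 and 133 FPKM in siOGA, against 35.3, 34 and 35.1 FPKM in siP300+OGA (log2 difference 1.95, SE 0.036, adjusted p = 1.67e-11). STAT3 had 32.6, 32.4 and 32.1 FPKM in siOGA, against 15.6, 14.8 and 14.9 FPKM in siP300+OGA (log2 difference 1.05, SE 0.034, adjusted p = 6.36e-10). In both genes the siOGA libraries were all higher, and siP300+OGA was at the siP300 level of 33 ± 1.42 FPKM for PIM1 and 15.3 ± 0.61 FPKM for STAT3. The receptor subunits LIFR (0.65) and IL6ST (0.81), the kinase JAK1 (0.49) and the STAT3 target BCL3 (0.94) were higher. The feedback inhibitor SOCS3 (-0.082, adjusted p = 0.511) did not pass. With the GC medians removed 9 of the 11 were higher and 1 lower. With regional medians removed 8 were higher and 0 lower, and the JAK1 difference was 0.11.

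**Figure D3:**
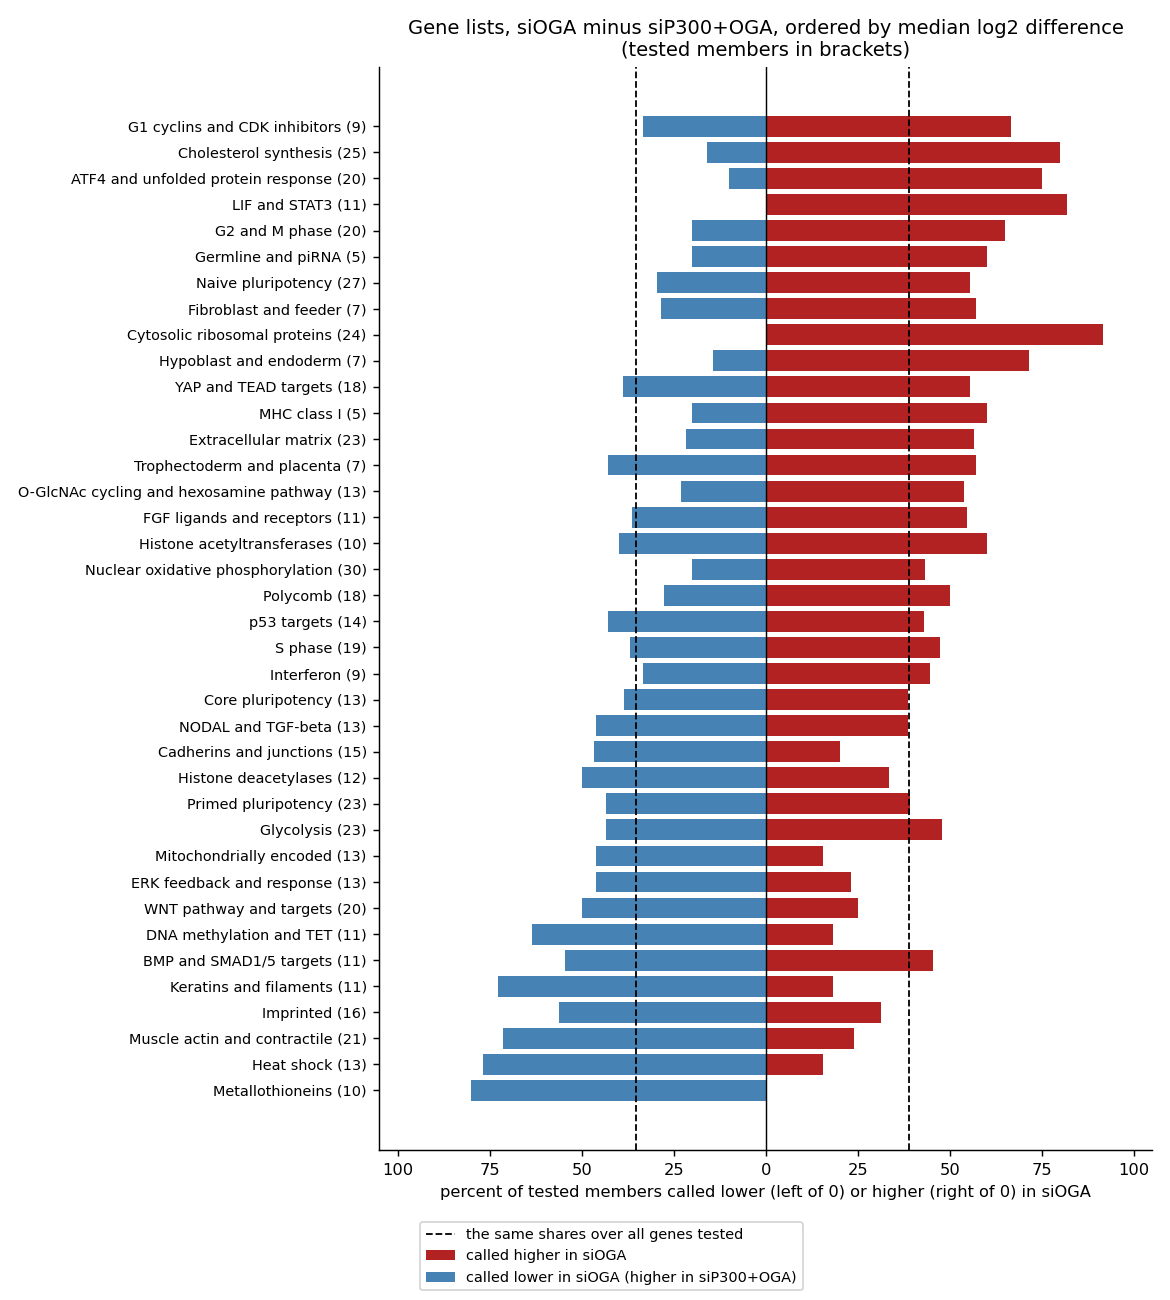
Share of the tested members of each gene list that were called lower (bars left of 0) or higher (bars right of 0) in siOGA than in siP300+OGA, in percent, for lists with at least 5 tested members. Lists are ordered by median log2 difference, and the dashed lines mark the 35.3% and 38.9% of all genes tested.

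Metallothioneins, small proteins that bind zinc and copper and that metals induce through the factor MTF1, were lower in siOGA. Of the 10 tested genes of this list, 0 were higher and 8 lower, with a median of -1.40, against 38.9% higher and 35.3% lower over all genes. The promoters of MT1H and MT2A are shown because both carry repeats of the element that MTF1 binds. The letters are the 250 bases before the RefSeq start in GRCh38.p14, with each match to TGCACNC or TGCGCNC on either strand in capitals.
MT1H (chr16:56669564-56669813, plus strand): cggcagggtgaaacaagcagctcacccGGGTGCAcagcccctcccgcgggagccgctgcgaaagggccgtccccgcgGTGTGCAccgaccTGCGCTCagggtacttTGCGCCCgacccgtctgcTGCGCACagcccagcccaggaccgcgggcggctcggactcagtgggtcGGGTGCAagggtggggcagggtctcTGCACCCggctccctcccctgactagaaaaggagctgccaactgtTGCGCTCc
MT2A (chr16:56608334-56608583, plus strand): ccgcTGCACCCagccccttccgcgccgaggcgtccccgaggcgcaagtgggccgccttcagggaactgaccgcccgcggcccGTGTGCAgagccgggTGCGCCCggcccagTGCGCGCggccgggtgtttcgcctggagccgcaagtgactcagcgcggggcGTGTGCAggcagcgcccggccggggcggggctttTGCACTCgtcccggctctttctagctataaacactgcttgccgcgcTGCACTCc

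MT1H has 8 such matches and MT2A 7. Of the 8 genes called lower, 4 had a promoter in the table, and all 4 (MT1H, MT1X, MT2A and the zinc exporter SLC30A1) held a match, as did 24.7% of all 27305 promoters. Here and for the elements below, only called members were scanned, and the lists hold genes known to respond to these factors. Such shares therefore do not bear on the difference between the groups. MT2A had 28.4, 36.5 and 29.2 FPKM in siOGA, against 129, 99 and 109 FPKM in siP300+OGA (log2 difference -1.81, SE 0.14, adjusted p = 5.53e-07). MT1H had 22.2, 32.4 and 23.6 FPKM in siOGA, against 133, 102 and 110.4 FPKM in siP300+OGA (log2 difference -2.11, SE 0.17, adjusted p = 5.73e-07). The siOGA libraries were below all siP300+OGA libraries in both, and the siNC means were 65.1 ± 11.4 FPKM of MT2A and 214 ± 47.2 FPKM of MT1H, so the order of the groups was not the same for the 2 genes. MT1E (-2.19), MT1M (-2.10) and SLC30A1 (-1.58) followed, and MTF1 did not pass (-0.14). MTF1 was past the threshold with the GC medians removed (-0.25, adjusted p = 0.00509) and without siP300+OGA replicate 2 (-0.20, adjusted p = 0.0343). The MT1 genes are near-identical copies whose reads the authors' counting could have split.

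Heat shock genes encode chaperones induced by HSF1. Of 13 tested, 2 were higher and 10 lower in siOGA, with a median of -1.0, against 38.9% and 35.3% of all genes. The promoters of HSPA1A and HSPA8 are shown because they hold the element GAANNTTC (capitals), which reads the same on both strands and was searched after the values were seen.
HSPA1A (chr6:31815293-31815542, plus strand): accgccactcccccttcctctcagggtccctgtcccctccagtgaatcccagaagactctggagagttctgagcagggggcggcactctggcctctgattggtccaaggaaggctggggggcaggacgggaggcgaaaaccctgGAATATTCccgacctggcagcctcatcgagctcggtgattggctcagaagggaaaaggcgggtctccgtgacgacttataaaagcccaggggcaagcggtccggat
HSPA8 (chr11:123062137-123062386, minus strand): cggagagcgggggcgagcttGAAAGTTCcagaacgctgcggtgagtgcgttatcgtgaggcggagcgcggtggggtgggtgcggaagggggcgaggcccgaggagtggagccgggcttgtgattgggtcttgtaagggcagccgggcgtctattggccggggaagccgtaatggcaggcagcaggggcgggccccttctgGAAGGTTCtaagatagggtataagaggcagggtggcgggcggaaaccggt

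The element was in 5 of the 10 promoters of the genes called lower and in 5.85% of all promoters. HSPA1A and the near-identical HSPA1B were both among the matches. The list was made of genes that HSF1 induces, so this share does not bear on the difference between the groups. HSPA1A, the inducible HSP70, had 7.08, 6.46 and 6.63 FPKM in siOGA, against 37.6, 35.6 and 36.3 FPKM in siP300+OGA (log2 difference -2.28, SE 0.039, adjusted p = 9.61e-12). HSPA8, the constitutive HSP70, had 199.6, 195 and 209.6 FPKM in siOGA, against 526, 541 and 527 FPKM in siP300+OGA (log2 difference -1.40, SE 0.031, adjusted p = 5.29e-11). The siOGA libraries were the lower ones in both, and siP300 averaged 27.6 ± 0.791 FPKM of HSPA1A and 416 ± 5.39 FPKM of HSPA8, above the siNC means of 9.87 ± 0.232 and 258 ± 5.7 FPKM. The near-identical HSPA1B (-1.59), whose reads cannot be fully told from HSPA1A, the cochaperone DNAJA1 (-1.58), and HSPH1 (-1.31), HSPB1 (-1.18) and DNAJB1 (-1.0) were lower as well. HSF1 did not pass (0.02), but did so with the GC medians removed (0.31, adjusted p = 2.5e-05) and with regional medians removed (0.35, adjusted p = 1.51e-05).

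Cholesterol synthesis genes were mostly higher in siOGA. All 25 listed were tested, and 20 were higher and 4 lower, with a median of 0.62, against 38.9% and 35.3% of all genes. HMGCS1, an enzyme early in the pathway, had 166, 167 and 182 FPKM in siOGA, against 43.3, 45.4 and 43.4 FPKM in siP300+OGA (log2 difference 1.94, SE 0.041, adjusted p = 4.04e-11). The siOGA libraries stood above all 3 other groups, whose means were 44.0 to 50.6 FPKM. The transporter STARD4 (1.76) and the enzymes MSMO1 (1.58), SC5D (1.42), MVD (1.38) and SQLE (1.09) were also higher, as were the sterol sensor partner INSIG1 (1.21) and the regulator SREBF2 (0.57). Members that went the other way, named after their values were seen, included the sterol reductase TM7SF2 (-1.38), the kinase PMVK (-1.18) and the cyclase LSS (-0.94). The element TCACNCCAC was in 1 of the 14 promoters of genes called higher, that of SREBF2, and in 0.875% of all promoters.

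**Figure D4:**
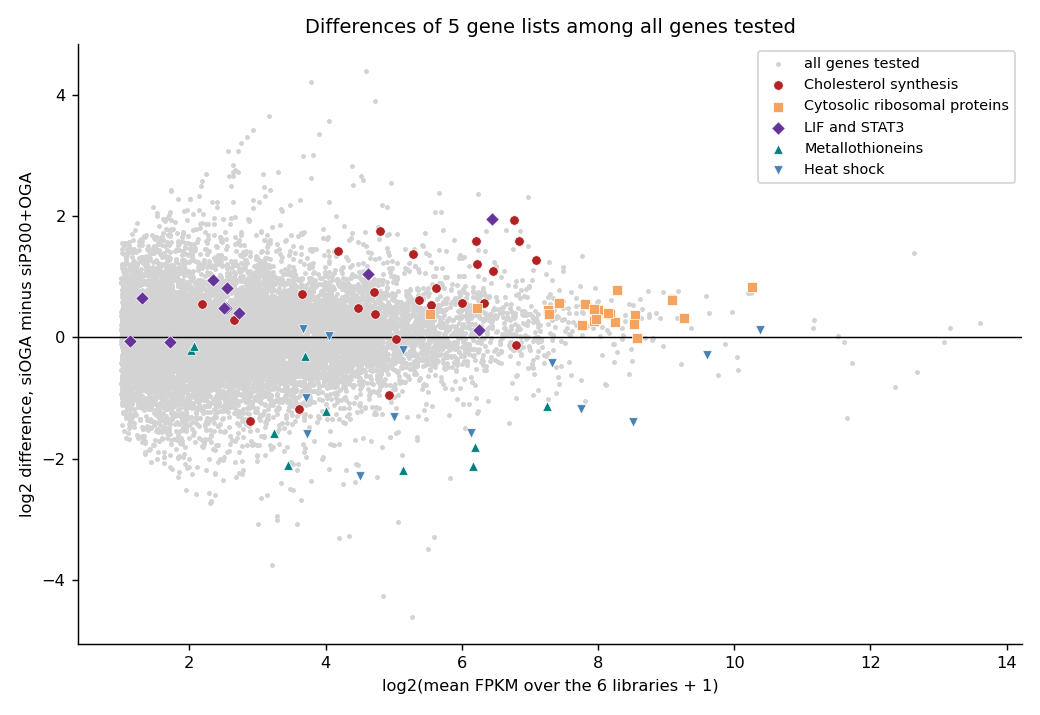
Log2 difference (siOGA minus siP300+OGA) of every gene tested against log2 of its mean FPKM plus 1, with the members of 5 lists marked. The cholesterol, ribosomal protein and LIF and STAT3 genes lie mostly above 0, and the metallothionein and heat shock genes mostly below.

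Genes of the ATF4 and unfolded protein responses, which answer amino acid shortage and misfolding in the endoplasmic reticulum, were higher in 15 and lower in 2 of 20, with a median of 0.55, beside 38.9% higher and 35.3% lower over all genes. ATF3, a stress-induced transcription factor, had 18, 18.4 and 17.9 FPKM in siOGA, against 4.79, 5.22 and 4.36 FPKM in siP300+OGA (log2 difference 1.72, SE 0.052, adjusted p = 4.32e-10). Asparagine synthetase (ASNS), a direct ATF4 target, had 6.67, 6.63 and 7.27 FPKM in siOGA, against 1.3, 1.67 and 1.38 FPKM in siP300+OGA (log2 difference 1.68, SE 0.073, adjusted p = 5.31e-09). The groups did not overlap in either. DDIT3 (1.56), PHGDH (1.0), the ER chaperone HSPA5 (0.84) and ATF4 (0.65) itself were higher, and the glutathione-degrading CHAC1 (-0.45) and the cystine carrier SLC7A11 (-0.45) were lower. HSPA5 thus stood opposite to its cytosolic relative HSPA8.

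In glycolysis the glucose transporters parted. Of 23 genes 11 were higher and 10 lower in siOGA, with a median of -0.036. Among glucose transporters, SLC2A3 had 124, 124 and 129 FPKM in siOGA, against 23.4, 24 and 24.1 FPKM in siP300+OGA (log2 difference 2.35, SE 0.03, adjusted p = 2.58e-12), while SLC2A1 had 19.4, 19.6 and 19 FPKM in siOGA, against 39.8, 40.2 and 40.5 FPKM in siP300+OGA (log2 difference -1.02, SE 0.032, adjusted p = 4.89e-10). The siOGA libraries were thus all higher in one and all lower in the other. SLC2A3 lies on the short arm of chromosome 12, and its difference was 1.81 with the regional median removed. The brain-type enolase ENO2 (1.44) was higher too, and lies in the same region, where it kept a difference of 0.89. ALDOC (1.15) was higher, and the hypoxia-linked PFKFB3 (-0.80) and HK2 (-0.66) lower.

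Of 30 nuclear genes of oxidative phosphorylation, 13 were higher and 6 lower, beside 38.9% and 35.3% of all genes, with NDUFV2 (1.60), UQCRC2 (0.75) and SDHB (0.69) leading. Of 13 mitochondrially encoded genes 2 were higher and 6 lower. Cytochrome b (MT-CYB) had 1726, 1769 and 2006 FPKM in siOGA, against 4682, 4652 and 4479 FPKM in siP300+OGA (log2 difference -1.33, SE 0.062, adjusted p = 8.36e-09), and MT-ATP6 (-0.81) was lower too. Of 24 cytosolic ribosomal protein genes, 22 were higher and 0 lower, with a median of 0.39, against 38.9% and 35.3% of all genes. With regional medians removed 23 were higher and 1 lower, and with the GC medians removed 21 and 1. RPL4 had 389, 393 and 392 FPKM in siOGA, against 228, 229 and 224 FPKM in siP300+OGA (log2 difference 0.78, SE 0.028, adjusted p = 1.28e-09). Ribosomal protein genes have many processed pseudogenes, which could take part of the reads.

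Cell cycle genes differed in both directions. Of 9 tested cyclins and CDK inhibitors of G1, 6 were higher and 3 lower. Beside CCND2, the inhibitor CDKN1C, which is imprinted, had 48.9, 48.5 and 46.5 FPKM in siOGA, against 10.7, 10.0 and 9.45 FPKM in siP300+OGA (log2 difference 2.15, SE 0.062, adjusted p = 2.96e-10). The inhibitors CDKN2D (1.18) and CDKN1B (1.0) and the kinase CDK6 (1.01) were higher, and CDK4 (-0.46) and RB1 (-0.51) were lower. Of 20 genes of G2 and M phase 13 were higher and 4 lower, with a median of 0.40. CDK1, the kinase of mitotic entry, had 55.6, 50.3 and 56.4 FPKM in siOGA, against 22.2, 23.9 and 23.9 FPKM in siP300+OGA (log2 difference 1.18, SE 0.057, adjusted p = 1.12e-08). Of 19 tested S phase genes 9 were higher and 7 lower, with CDT1 (0.89) among the higher ones, and 7 and 8 with the GC medians removed. Of 14 tested p53 targets 6 were higher and 6 lower: GDF15 (1.96), a secreted stress factor, rose and TP53I3 (-1.54) fell, while CDKN1A stayed below the minimum at 0.544 FPKM in siOGA and 0.323 FPKM in siP300+OGA.

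Both acetyltransferases and deacetylases of histones differed in both directions. Of 10 tested acetyltransferases, 6 were higher, EP300 by the most, and 4 lower, CREBBP by the most, followed by KAT6B (-0.50). Of 12 tested deacetylases, 4 were higher and 6 lower, with HDAC7 (-0.72), SIRT6 (-0.69) and HDAC4 (-0.56) at the lower end, and 2 and 5 with regional medians removed. Another deacetylase gene, SIRT7, was lower (-0.47), but lies in a window at the end of chromosome 17 that was low as a whole, and its difference was -0.018 (adjusted p = 0.845) once that was removed.

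Of 11 tested genes of DNA methylation, 2 were higher and 7 lower in siOGA, beside 38.9% and 35.3% of all genes. UHRF1, which brings DNMT1 to newly copied DNA, had 5.71, 5.95 and 5.47 FPKM in siOGA, against 19, 19.9 and 18.4 FPKM in siP300+OGA (log2 difference -1.58, SE 0.042, adjusted p = 1.71e-10). The groups did not overlap, and siNC averaged 14.7 ± 0.561 FPKM. The de novo enzyme DNMT3B had 208, 208 and 196 FPKM in siOGA, against 354, 351 and 346 FPKM in siP300+OGA (log2 difference -0.78, SE 0.031, adjusted p = 2.94e-09), and the other means were 159.9 FPKM in siP300 and 338 FPKM in siNC. DNMT3A (-1.10), MBD3 (-1.10) and the imprint protector ZFP57 (-0.88) were lower, and TET3 (0.34), which oxidises methylcytosine, was higher. Of 18 Polycomb genes 9 were higher and 5 lower. The chromodomain subunit CBX2 (-1.40), PHF19 (-1.15) and RING1 (-1.04) were lower and AEBP2 (1.18) higher, the AEBP2 difference being 0.63 with the regional median removed, since it too lies on the short arm of chromosome 12.

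Of 16 tested imprinted genes, 5 were higher and 9 lower, and 4 and 6 with regional medians removed. PHLDA2, which lies beside CDKN1C on chromosome 11 and limits placental growth, had 82, 76.8 and 73.2 FPKM in siOGA, against 15.4, 19 and 18.9 FPKM in siP300+OGA (log2 difference 2.07, SE 0.082, adjusted p = 2.55e-09). PEG3 (-0.97) and NDN (-0.81) were lower. Of 14 HOX genes only 2 were tested, and both were lower. HOXB1 had 0.494, 0.566 and 0.368 FPKM in siOGA, against 7.63, 8.14 and 8.04 FPKM in siP300+OGA (log2 difference -2.60, SE 0.099, adjusted p = 1.91e-09), with 1.3 FPKM in siP300 and 0.956 FPKM in siNC, so only the siP300+OGA libraries were above 2 FPKM. HOXB2 averaged 7.57 ± 0.688 FPKM in siOGA and 23.9 ± 0.434 FPKM in siP300+OGA (-1.54).

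Muscle actins and contractile genes, many of them targets of SRF and its actin-sensing cofactors, were mostly lower in siOGA. Of 21 tested, 5 were higher and 15 lower, with a median of -0.42, beside 38.9% and 35.3% of all genes. With regional medians removed 2 were higher and 13 lower, with a median of -0.20, and with the GC medians removed 4 and 12, with a median of -0.24. The promoters of ACTA1 and ACTG2 are shown because both hold the CArG box (capitals) that SRF binds, searched on both strands.
ACTA1 (chr1:229434095-229434344, minus strand): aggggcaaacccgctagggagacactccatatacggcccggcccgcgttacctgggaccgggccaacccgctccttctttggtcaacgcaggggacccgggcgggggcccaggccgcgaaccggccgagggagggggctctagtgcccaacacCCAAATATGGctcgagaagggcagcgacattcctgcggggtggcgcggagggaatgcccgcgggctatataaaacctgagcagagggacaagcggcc
ACTG2 (chr2:73892758-73893007, plus strand): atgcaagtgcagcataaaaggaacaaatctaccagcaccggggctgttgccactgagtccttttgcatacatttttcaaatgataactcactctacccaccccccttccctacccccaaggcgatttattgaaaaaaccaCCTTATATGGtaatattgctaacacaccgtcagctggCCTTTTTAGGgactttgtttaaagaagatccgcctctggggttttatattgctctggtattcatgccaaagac

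The box was in 5 of the 12 promoters found for the genes called lower and in 1.14% of all promoters. The TEAD element GGAATG was in 3 of the same 12, and in 1 of the 5 promoters found for the YAP and TEAD targets called higher, beside 11.9% of all promoters. Again only called members of lists with known targets were scanned, so these shares do not bear on the difference between the groups. ACTA1, skeletal actin, had 6.17, 5.83 and 5.47 FPKM in siOGA, against 10.8, 10.6 and 11.6 FPKM in siP300+OGA (log2 difference -0.82, SE 0.06, adjusted p = 2.93e-07). Both groups were far below the siP300 mean of 99.1 ± 2.01 FPKM and above the siNC mean of 1.53 ± 0.197 FPKM. The tropomyosin TPM2 (-1.17), the light chain MYL9 (-0.76) and ACTG2 (-0.62) were lower, and TPM1 (0.78) was higher. ACTC1, cardiac actin, had 2.06, 1.97 and 1.94 FPKM in siOGA, against 1.71, 1.78 and 1.42 FPKM in siP300+OGA (log2 difference 0.18, SE 0.074, adjusted p = 0.0441), whereas siP300 averaged 151 ± 1.22 FPKM. With regional medians removed the ACTC1 difference turned to -0.071 (adjusted p = 0.412), and it also missed the threshold without any of the siOGA or siP300 libraries or without siP300+OGA replicate 1 or 3 (0.12 to 0.20, adjusted p from 0.0569 to 0.172). The actin genes are close copies, so their reads may be shared.

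Of 18 tested YAP and TEAD targets and partners 10 were higher and 7 lower, and 8 and 8 with regional medians removed. Beside CCN2, the factors TEAD1 (1.59) and WWTR1 (1.19) (TAZ) were higher and TEAD2 (-0.90) lower. ANKRD1, another target, was below the minimum, with 0.857 FPKM in siOGA and 0.28 FPKM in siP300+OGA against 23.5 FPKM in siP300 and 0.19 FPKM in siNC.

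Of 11 tested keratins and other filaments, 2 were higher and 8 lower, beside 38.9% and 35.3% of all genes. Next to KRT19, KRT8 had 36.8, 36.6 and 32.8 FPKM in siOGA, against 106, 107 and 102 FPKM in siP300+OGA (log2 difference -1.54, SE 0.053, adjusted p = 9.18e-10) and its partner KRT18 49.8, 47.7 and 46.5 FPKM in siOGA, against 95.8, 97.5 and 98.8 FPKM in siP300+OGA (log2 difference -1.01, SE 0.037, adjusted p = 1.42e-09). Both siOGA and siP300+OGA were above the siNC means of 21.3 ± 1.45 FPKM of KRT8 and 18.2 ± 0.919 FPKM of KRT18. For KRT19, siP300+OGA was above the siNC mean but siOGA was not. KRT8 and KRT18 lie between 40 and 60 Mb of chromosome 12. Relative to the siNC mean, the median log2 level of that window was 0.40 to 0.42 in siOGA and 0.39 to 0.41 in siP300+OGA. Of 23 tested extracellular matrix genes 13 were higher and 5 lower, among them the basement membrane proteins HSPG2 (1.55) and LAMA1 (1.51) and the protease MMP2 (1.23) on the higher side, and LAMB2 (-1.03) and TIMP2 (-0.79) on the lower side. Of 15 tested junction genes 3 were higher and 7 lower: N-cadherin rose, and the claudin CLDN6 (-0.77) and plakoglobin (JUP (-0.73)) fell.

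Immune and germline genes were few. Of 18 interferon genes 9 were tested, with 4 higher, among them IFITM1 (1.04), and 3 lower. Of 11 genes of MHC class I 5 were tested, with 3 higher and 1 lower. HLA-E had 65.4, 63.8 and 59.1 FPKM in siOGA, against 20.6, 22.3 and 21.4 FPKM in siP300+OGA (log2 difference 1.51, SE 0.048, adjusted p = 6.15e-10), while HLA-C (-0.47) was lower. Below the minimum, HLA-B averaged 0.184 FPKM in siOGA and 1.2 FPKM in siP300+OGA, and PSMB8 0.73 FPKM in siOGA and 0.28 FPKM in siP300+OGA. HLA genes are polymorphic close copies, so their levels are uncertain. Of 20 germline and piRNA genes 5 were tested, 3 higher, led by TDRKH (0.80) and SYCP3 (0.70), and DDX43 (-0.52) lower. The MAGE and cancer-testis list had 4 of 17 tested. MAGEH1 (0.82) was higher and NLRP2 (-0.92) lower, and MAGED2 passed at 0.09 only.

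Differences also followed position on the chromosomes. Over 152 windows of 20 Mb with at least 20 tested genes, the median difference was more than 0.3 above the median of all genes in 11 and more than 0.3 below it in 7. These windows also sorted by base composition. Their median GC content was 38.55% to 49.02% in the 11 and 52.78% to 63.62% in the 7, beside 48.07% over all genes. The first 20 Mb of chromosome 12 had a median of 0.56, with 92 genes higher and 17 lower of 135, and the next 20 Mb had 0.80, with 43 higher and 4 lower of 53. In those 2 windows the medians relative to the siNC mean were 0.25 to 0.43 in the siOGA libraries and -0.42 to -0.18 in the siP300+OGA libraries. The siP300 libraries shared the lower level, at -0.42 to -0.29. CCND2, NANOG, DPPA3, GDF3, SLC2A3, ENO2 and AEBP2 lie there. CCND2 kept a difference of 3.66 with the regional median removed.

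At the other end, the window from 100 to 120 Mb of chromosome 14 had a median of -0.61, with 7 genes higher and 51 lower of 73, and that from 40 to 60 Mb of chromosome 21 had -0.51, with 5 higher and 43 lower of 56. The first 20 Mb of chromosome 4 had -0.49, with 9 higher and 62 lower of 90. In the chromosome 4 and 21 windows the siOGA libraries were at -0.49 to -0.43 relative to siNC and the siP300+OGA libraries at 0.033 to 0.094. The siP300 libraries were at -0.0555 to 0.045 there. In the chromosome 14 window the libraries of siOGA were at -0.24 to -0.18 and those of siP300+OGA at 0.30 to 0.38. Those of siP300 were raised as well, at 0.22 to 0.29. The number of gene copies was not measured, and what the regional shifts come from was not tested.

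**Figure D5:**
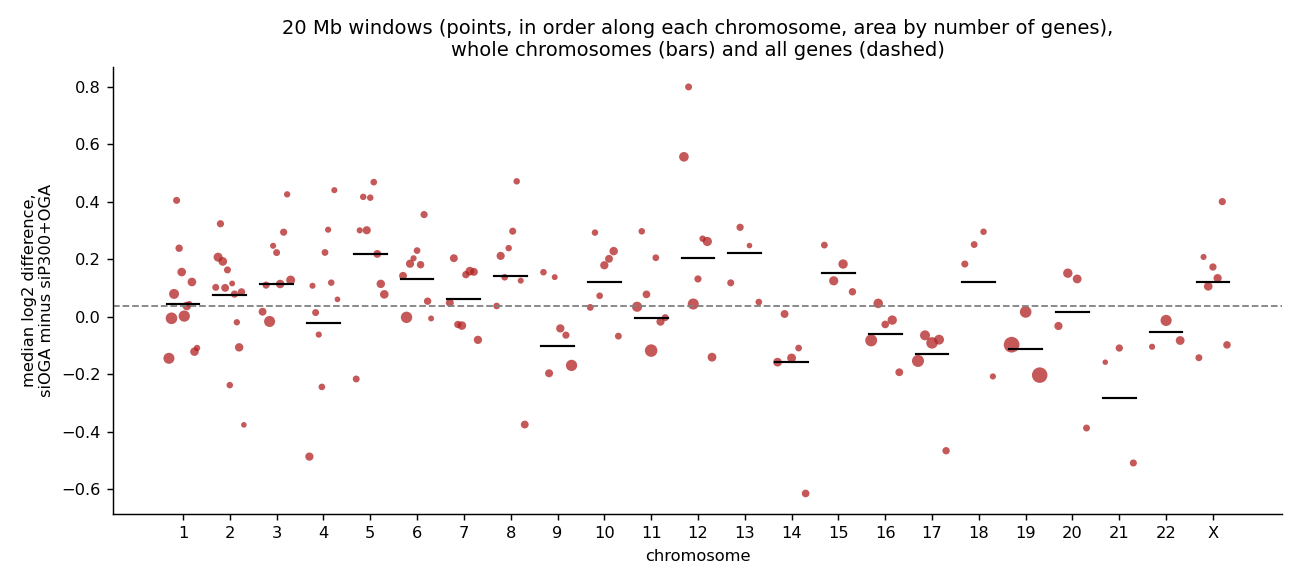
Median log2 difference (siOGA minus siP300+OGA) of the genes in each 20 Mb window, as points in order along each chromosome with area by number of genes, with bars for whole chromosomes and a dashed line for all genes. The 2 highest points, 0.80 and 0.56, are the first windows of chromosome 12, and the lowest, -0.61, is the last window of chromosome 14.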

How the data were processed

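Values were deposited as FPKM, which the authors made from 12 poly(A), dUTP-stranded, paired-end libraries with molecular identifiers, per the labels' protocols. The submitters' processing notes name, without their roles, the build GRCh38 and the tools edgeR, DESeq2, StringTie 1.3.4d, UMI-tools, HISAT2 2.0.4 and cutadapt 1.9. The annotation, filters and counting strand were not given in the sources used here. Overlapping genes are therefore uncertain. Each value was a whole number of reads times a step (100% within 0.01), which gave 16238225 to 18714572 reads per library. The library size the step implies was 0.935 to 0.954 times those reads in siOGA and 1.02 to 1.03 times in siP300+OGA, so the libraries had been scaled.

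Genes whose mean reached 1 FPKM over the 6 libraries compared were tested on log2(FPKM + 1) with limma 3.58.1 (R 4.3.3), with an intensity trend, in a model of all 12 libraries that leaves 8 residual degrees of freedom. Such log2 differences understate the change of low genes. Calls are two-sided, at a p under 0.05 after Benjamini-Hochberg adjustment over 13074 genes. The fit was also run on simulated data. These held few changed genes and no GC or regional shifts, so they cannot vouch for the calls made here. With 3 libraries against 3, the smallest p of an exact permutation test is 0.1. The 25 alternatives change the pseudocount, minimum, scaling, trend, weights, samples, test, replicate block, and regional or GC medians. Genes were named by rule: the manipulated genes and partners, the 12 largest rises and falls that do not overlap (at least 2 FPKM, with a unique gene symbol that is no clone, locus, LINC or pseudogene name), up to 4 called members of each of 44 lists, and fixed markers. A few genes named by it are not reported here. Other genes were chosen after their values were seen. The members and lists were chosen with earlier results of these data known. Replicate numbers did not pair the libraries (r from -0.071 to 0.13 over 18 same-numbered pairs). Coordinates are from GENCODE v29, matched by gene identifier, and promoters from RefSeq (GRCh38.p14) were matched by symbol. GC content was had for 98.0% of the genes.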

Additional observations from a re-analysis of the deposited data

How the results depend on the processing

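Requiring a mean of 5 FPKM left 3016 genes higher and 2488 lower in siOGA, 361 and 313 of them by at least 1, because fewer genes were tested. The counts at a difference of at least 1 depended on the pseudocount and the tool. They were 1253 higher and 1250 lower with a pseudocount of 0.1, 188 and 153 with a pseudocount of 5, and 1336 and 1298 with voom on the recovered reads. Leaving out 1 library gave 4818 to 5099 genes higher and 4356 to 4611 lower, and 765 to 801 and 711 to 767 by at least 1. Since the replicate numbers did not pair the libraries, the replicate block was only an alternative: it gave 5104 higher and 4605 lower. Across scalings and centrings, 49.7% to 52.4% of the genes called were higher.

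Of 235 genes followed, 184 of them by the rule, 219 kept their direction and their side of the threshold in each of the 25 alternatives that tested them. Of the other 16, those not given above were HORMAD1 (0.13) and IRF7 (-0.020) with GC medians removed and NDUFA9 (0.063) with regional medians removed, none of them past the threshold then. The direction turned for MAGED2 with quantile normalization (-0.055) and regional medians removed (-0.022), for ACTC1 with regional medians removed (-0.071), and for DNMT3L with GC (0.021) and regional medians removed (0.36, adjusted p = 7.16e-05). SPARC, not past the threshold at first, passed as lower with GC (-0.054, adjusted p = 0.0448) and regional medians removed (-0.13, adjusted p = 0.000626) and with quantile normalization (-0.17, adjusted p = 0.000235). The cause was not tested. Depth limits genes near 1 FPKM and the short genes most.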

Other observations

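Long noncoding RNAs encode no protein, and poly(A) libraries hold mainly those that are polyadenylated. They numbered 1123 among the genes tested, and 418 of them passed as higher in siOGA and 314 as lower. Of the 10844 protein-coding genes, 4327 passed as higher and 4107 as lower. The difference between these shares was not tested. The gene with the highest difference of all those tested was such an RNA, LINC00678 on chromosome 11, whose LINC symbol the naming rule leaves out with clone names, so it is given here after its values were seen. LINC00678 had 45.5, 43.7 and 45.5 FPKM in siOGA, against 1.26, 1.32 and 1.02 FPKM in siP300+OGA (log2 difference 4.38, SE 0.11, adjusted p = 1.00e-10), with means of 1.18 FPKM in siP300 and 1.35 FPKM in siNC. The groups did not overlap, and siOGA was the only group above 2 FPKM.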
